A study of Mus musculus with 6 samples.

Results

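The connexins and mesenchymal cadherins of the aortic valve were followed as 8 genes, which were picked out of the 46983 genes of the deposited expression table by name. They were the connexins Gja1, Gja4, Gja5, Gjc1 and Gjb2 and the cadherins Cdh2, Cdh11 and Cdh13. RNA-seq had been performed on aortic valves isolated from wild type C57BL/6J mice of 2 ages, postnatal day 2 (PND2) and 4 months. There were 3 libraries per age, each from the pooled valves of 5 to 6 mice. No treatment or other genotype was included, so the single comparison is between the ages. Each library is a mixture of all cells in the isolated valves, and a p-value here measures the spread between 3 pools per age.

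Gap junctions join the cytoplasm of neighbouring cells. Their channels are made of connexins, which pass ions and small metabolites from cell to cell, and the mixture of connexins sets how a channel conducts. Cadherins hold cells together at adherens junctions by calcium-dependent binding between their outer domains, while catenins tie their inner ends to actin. In the heart, connexins and N-cadherin (Cdh2) share the intercalated discs of the muscle, and Cdh2 and Cdh11 are known from the cells that fill the embryonic endocardial cushions and later the valve leaflets.

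Of the 8 genes, 5 were lower at 4 months (Gja4, Gja5, Gjc1, Cdh2 and Cdh11), Cdh13 alone was higher, and Gja1 and Gjb2 did not pass the test. A per-gene test with unequal variances, the kind that the study used, was also run with the filter and threshold given below. By this test, Gja4, Gja5 and Cdh2 lost the call (adjusted p = 0.055, 0.092 and 0.11), which left 2 genes lower. The study's own gene filter differed, and it gave a count of genes at an FDR under 0.1. All 8 passed the filter on low values, an RPKM (reads scaled to exonic length and to the library's total) of at least 0.1 in 3 libraries. They were tested among the 25903 genes that passed it, by limma on log2(RPKM + 0.1) with Benjamini-Hochberg adjustment, and a gene was called at an adjusted p under 0.05. Calls were common in this comparison. Of all genes tested, 35.8% were called, 14.7% as higher and 21.1% as lower at 4 months, and in 50.0% the ages showed no overlap. Among the 8 genes, the ages did not overlap in 6, the same 6 that were called. Over all genes tested, the median log2 fold change was -0.14. In 3 called genes, Gja4, Gja5 and Cdh2, the mean RPKM differed more than 2-fold. These fold changes are on the log2(RPKM + 0.1) scale, which understates the change of genes with low RPKM.

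Gja4 (mm10, chr4:127311421-127314039, minus strand) encodes Cx37, a connexin known from arterial endothelium. Its RPKM was 66.8, 79.5 and 111 in the PND2 libraries and 19.0, 18.05 and 20.2 in those of 4 months. Every library of 4 months was below every PND2 library, and the 4-month values lay close together. The mean fell from 85.7 ± 22.6 to 19.1 ± 1.10 (SD, n = 3), which is 4.49-fold lower. The log2 fold change was -2.13 (SE 0.18, limma adjusted p = 0.00025), the lowest among the 8 genes. Between 724 and 5462 reads stood behind each value.

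Gja5 (chr3:96904693-97077416, plus strand) encodes Cx40, which is known from arterial endothelium, atrial muscle and the conduction system. Its RPKM was 9.48, 15.0 and 16.0 at PND2 and 3.42, 5.25 and 1.92 at 4 months. The ages did not overlap, but the 4-month libraries differed among themselves by more than those for Gja4 did. The mean fell from 13.5 ± 3.52 to 3.53 ± 1.66, 3.82-fold lower, with a log2 fold change of -1.98 (SE 0.37, limma adjusted p = 0.0060). Within a library, the ratio of Gja5 to Gja4 was 0.142, 0.189 and 0.144 at PND2 and 0.180, 0.291 and 0.0951 at 4 months. These ranges overlapped, and the log2 ratio differed by 0.12 (exact permutation test, 2-sided p = 0.8, 0.8 after adjustment over 9 ratios). The difference was -0.26 without the second library of 4 months, so no direction can be given. The level of this ratio rests on gene-level RPKM, which annotated exons with few reads lower in Gja5.

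Gjc1 (chr11:102799579-102819700, minus strand) encodes Cx45, an early cardiac connexin that is also found in nodal tissue and smooth muscle. Its RPKM was 27.5, 30.4 and 26.3 at PND2 and 16.6, 15.9 and 15.0 at 4 months. Libraries of the same age differed little, and the ages did not overlap. The mean fell from 28.1 ± 2.14 to 15.8 ± 0.812, and the log2 fold change was -0.82 (SE 0.10, limma adjusted p = 0.0012).

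Gja1 (chr10:56377300-56390419, plus strand) encodes Cx43, the most widely expressed connexin and the main one of ventricular muscle. Its RPKM was 73.4, 85.1 and 118 at PND2 and 106, 144 and 163 at 4 months. The highest PND2 library exceeded the lowest library of 4 months, so the ages overlapped. The mean was 92.1 ± 22.9 at PND2 and 138 ± 28.8 at 4 months. The log2 fold change was 0.59 (SE 0.21, 95% confidence interval 0.08 to 1.09, limma adjusted p = 0.071), on the other side of 0 from the changes of Gja4, Gja5 and Gjc1. The call depended on the setting, and 12 of 17 alternatives did not make it. Over these alternatives the adjusted p ran from 0.016 to 0.22, the highest by the per-gene test with unequal variances. It was 0.042 when each library was scaled to the median gene, 0.043 by limma voom on recovered reads, 0.032 without the third PND2 library (log2 fold change 0.78) and 0.034 without the first library of 4 months (0.76).

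Gjb2 (chr14:57098600-57104702, minus strand) encodes Cx26, an epithelial connexin best known from the inner ear. It was near the limit of detection, with 8 to 19 reads in each library. Its RPKM was 0.171, 0.109 and 0.227 at PND2 and 0.211, 0.192 and 0.115 at 4 months. The ages lay among each other, and the log2 fold change was 0.03 (SE 0.37, 95% confidence interval -0.84 to 0.90, limma adjusted p = 0.96). With so few reads, and with 0.1 added to values of this size, no difference was detectable at this depth.

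**Figure D1:**
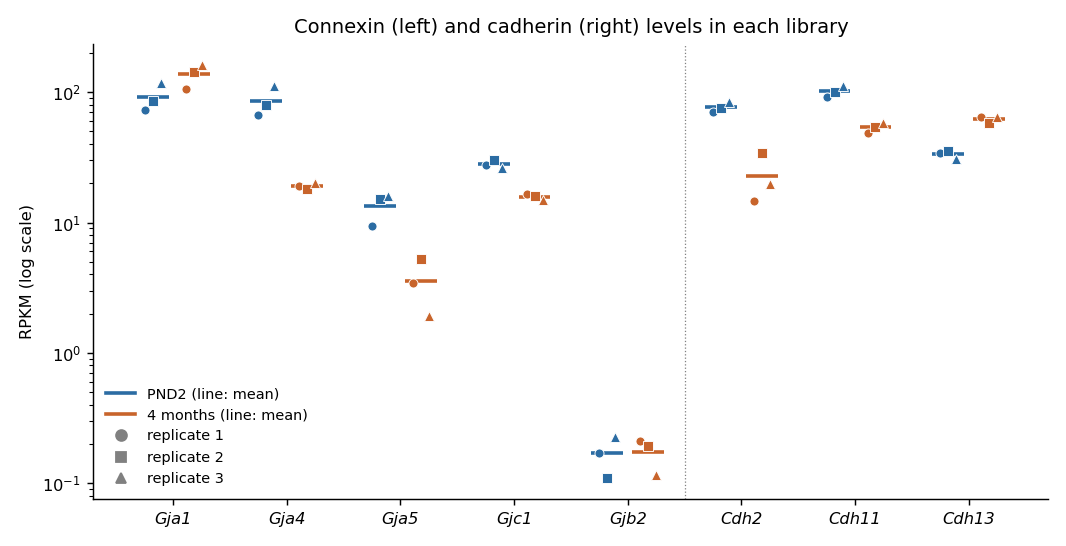
RPKM of each gene in each library on a log scale, with PND2 in blue and 4 months in orange. Marker shapes give the replicate number and lines the mean of 3 libraries. Gja4, Gja5, Gjc1, Cdh2 and Cdh11 sit lower at 4 months and Cdh13 higher, each without overlap, while Gja1 overlaps and Gjb2 stays below 0.3 RPKM.

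Among the cadherins, Cdh2 (N-cadherin, chr18:16588877-16809246, minus strand) joins heart muscle cells at their ends and is also found in mesenchyme. Its RPKM was 70.3, 75.4 and 83.7 at PND2 and 14.6, 34.4 and 19.6 at 4 months. All 4-month values were below all PND2 values, and the second library of 4 months was the highest of its age. The mean fell from 76.5 ± 6.78 to 22.9 ± 10.3, 3.34-fold lower, with a log2 fold change of -1.82 (SE 0.28, limma adjusted p = 0.0029). Without that library it was -2.16.

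Cdh11 (OB-cadherin, chr8:102632995-102785111, minus strand) is known from osteoblasts, fibroblasts and other mesenchymal cells. Its RPKM was 92.6, 100.2 and 112 at PND2 and 48.9, 54.4 and 58.4 at 4 months, again without overlap. The mean fell from 101 ± 9.57 to 53.9 ± 4.76, 1.88-fold lower, and the log2 fold change was -0.91 (SE 0.11, limma adjusted p = 0.0010).

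Cdh13 (T-cadherin, chr8:118283733-119324921, plus strand) differs from the other cadherins here, since it has no inner domain, is held in the membrane by a lipid anchor and binds the hormone adiponectin. It is also known from blood vessels, so the name mesenchymal fits it less well than Cdh2 and Cdh11. Its RPKM was 34.4, 35.1 and 30.9 at PND2 and 65.1, 58.4 and 65.1 at 4 months, with no overlap. The mean rose from 33.5 ± 2.28 to 62.8 ± 3.87, 1.88-fold higher, and the log2 fold change was 0.91 (SE 0.10, limma adjusted p = 0.00059). The transcript of its ligand, Adipoq, was at 0.107 ± 0.0803 RPKM at PND2 and 70.0 ± 56.0 RPKM at 4 months. That mean rested on the second library of 4 months (134 RPKM, against 34.2 and 41.2) and was 37.7 without it. Plin1, Cidec and Lep, also adipocyte genes, were highest in the same library.

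Since RPKM is scaled by exonic length, levels of different genes can be set side by side within an age. Annotated exons with few reads lower such gene-level values, as in Gja5, Gjc1, Cdh2 and Cdh13. At PND2 the order of mean RPKM was Cdh11, Gja1, Gja4, Cdh2, Cdh13, Gjc1, Gja5 and Gjb2. The ranges of each neighbouring pair from Cdh11 to Cdh2 overlapped, while each gene from Cdh2 to Gja5 was above the next in all 3 libraries without overlap. At 4 months the order was Gja1, Cdh13, Cdh11, Cdh2, Gja4, Gjc1, Gja5 and Gjb2. In gene-level RPKM, Gja1 was then above every other gene without overlap. Among neighbours in this order only Cdh13 and Cdh11, and Cdh2 and Gja4, overlapped. Cdh2, with its wide spread, also overlapped Gjc1. By gene-level RPKM, Cdh13 thus moved from rank 5 at PND2 to rank 2 at 4 months, and Gja4 from rank 3 to rank 5. The ranks of Cdh13 and Gja1 depended on the annotated exons. An internal exon of Cdh13 (chr8:119288586-119288728) was at 150 to 161 RPKM at PND2 and 262 to 281 at 4 months. Its last exon was at 64.5 to 71.7 and 128 to 155 RPKM. The longer exon of Gja1 was at 76.5 to 122 and 110 to 168 RPKM, so by exons Gja1 was not above Cdh13 throughout. Between Gja4 and Gjc1 the order at 4 months also depended on the annotated exons. The coding exon of Gja4 was at 19.1 to 20.8 RPKM and the last exon of Gjc1 at 37.1 to 42.9.

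Some genes kept a steadier balance within PND2 than their levels did. The ratio of Gja1 to Gja4 was 1.10, 1.07 and 1.06 in the PND2 libraries, although each gene varied between them (SD 22.9 and 22.6 RPKM). At 4 months this ratio was 5.59, 7.96 and 8.05. The ratio of Cdh11 to Cdh2 was 1.32, 1.33 and 1.33 at PND2 and 3.34, 1.58 and 2.98 at 4 months. The ratio of Cdh13 to Cdh2 was 0.489, 0.466 and 0.369 at PND2 and 4.45, 1.69 and 3.32 at 4 months. None of these 3 ratios overlapped between the ages, and their log2 differences were 2.72, 0.92 and 2.74. Each reached p = 0.1 in a 2-sided exact permutation test, the smallest p that 3 libraries against 3 allow, and 0.129 after adjustment over 9 ratios. A ratio within a library does not depend on how the libraries were scaled, though its level depends on the annotated exon lengths of both genes.

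As a share of the summed RPKM of 20 connexin genes, Gja1 held 37.8, 37.6 and 41.2% at PND2 and 66.2, 73.8 and 76.8% at 4 months. Gja4 held 36.1 ± 2.37% at PND2 and 10.2 ± 1.41% at 4 months, Gja5 held 5.70 ± 0.883% and 1.91 ± 0.914%, and Gjc1 held 12.2 ± 2.67% and 8.51 ± 1.67%, with overlap for Gjc1 alone among these 4. By gene-level RPKM, the connexin sum therefore held nearly equal parts of Gja1 and Gja4 at PND2 and mostly Gja1 at 4 months. Annotated exons with few reads lower the gene-level values of Gja5 and Gjc1, and so their shares. The last exon of Gjc1 (chr11:102799579-102801195) was at 63.6 to 74.8 RPKM at PND2 and 37.1 to 42.9 at 4 months. The coding exon of Gja4 was at 69.6 to 114 and 19.1 to 20.8 RPKM. By these exons, Gjc1 was also a large part at PND2 and lay above Gja4 at 4 months. The 5 connexins followed here held 92.9 ± 1.81% and 93.0 ± 2.08% of the sum. The sum itself was 236 ± 46.4 RPKM at PND2 and 189 ± 26.2 RPKM at 4 months, with overlap (exact permutation test, p = 0.3, 0.4 after adjustment over 12 shares and sums).

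The summed RPKM of 19 cadherin genes was 346, 366 and 403 at PND2 and 192, 213 and 196 at 4 months, without overlap. Cdh11 held 27.3 ± 0.491% of it at PND2 and 26.9 ± 2.47% at 4 months, and its shares overlapped. Cdh2 held 20.6 ± 0.246% at PND2 and 11.3 ± 4.44% at 4 months. Cdh13 held 9.07 ± 1.22% and 31.5 ± 3.51%, the highest mean share of any cadherin at 4 months. Cdh5 held 26.2 ± 3.93% and 17.5 ± 1.32%, and Cdh3 held 11.6 ± 2.29% and 3.50 ± 1.63%. Shares of 1 sum are not independent of each other. They also rest on gene-level RPKM, which annotated exons with few reads lower in Cdh2 and Cdh13. Where the ages did not overlap, the exact permutation p of a member's share was 0.1 (0.171 after adjustment).

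**Figure D2:**
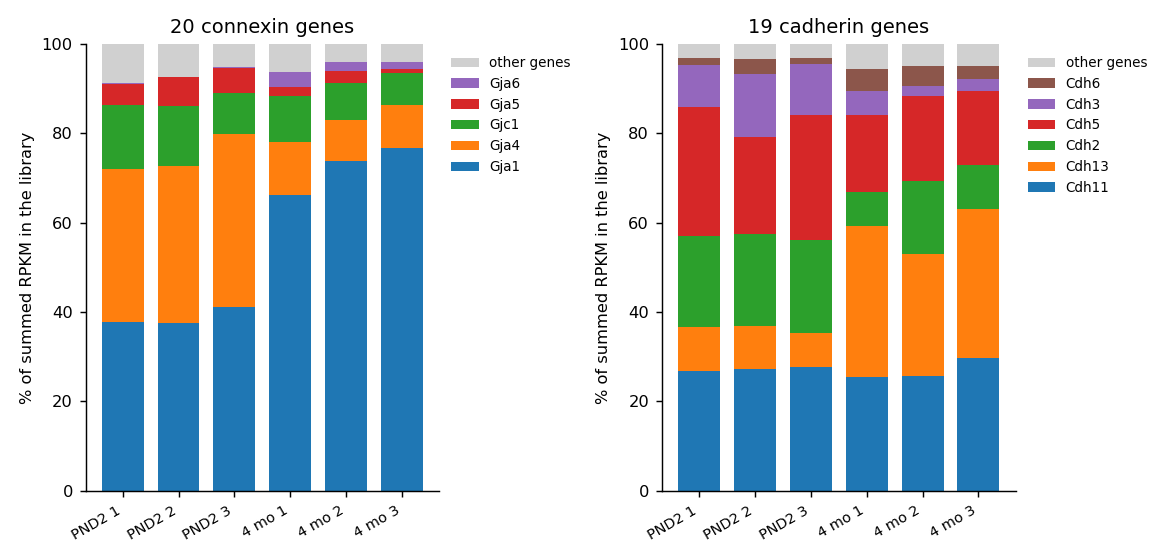
Share of the summed RPKM held by each gene in each library, as stacked bars that add to 100%, for 20 connexin genes (left) and 19 cadherin genes (right). Gja1 grows from 37.6 to 41.2% at PND2 to 66.2 to 76.8% at 4 months as Gja4 shrinks, and Cdh13 grows from a mean of 9.07 to 31.5% while the mean of Cdh11 is 27.3 and 26.9%.

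Promoter sequences were at hand for Gja1, Gja4, Gja5 and Gjb2, 4 of the 8 genes, from RefSeq annotation on build GRCm38.p6, which has the coordinates of mm10. The 250 bases before the start of Gja4 (chr4:127314040-127314289, minus), Gja5 (chr3:97032152-97032401, plus) and Gja1 (chr10:56377050-56377299, plus) are shown because Gja4 and Gja5 both fell while Gja1 was not called. Capitals mark matches on either strand to 5 motifs. These were the GC box, spelled GGGCGG, the box of Kruppel-type factors, spelled CACCC, the TATA box, spelled TATAAA, the AP-1 site, spelled TGANTCA, and the T-box element, spelled AGGTGT.
Gja4: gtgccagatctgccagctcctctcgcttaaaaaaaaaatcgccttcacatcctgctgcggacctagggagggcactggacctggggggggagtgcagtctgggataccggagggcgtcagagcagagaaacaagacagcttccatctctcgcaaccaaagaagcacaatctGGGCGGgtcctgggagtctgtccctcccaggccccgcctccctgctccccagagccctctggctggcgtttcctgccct
Gja5: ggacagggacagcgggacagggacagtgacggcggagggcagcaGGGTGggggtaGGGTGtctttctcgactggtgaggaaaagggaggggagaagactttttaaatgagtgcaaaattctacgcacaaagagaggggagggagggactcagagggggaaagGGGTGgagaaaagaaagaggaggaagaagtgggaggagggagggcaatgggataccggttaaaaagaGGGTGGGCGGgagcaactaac
Gja1: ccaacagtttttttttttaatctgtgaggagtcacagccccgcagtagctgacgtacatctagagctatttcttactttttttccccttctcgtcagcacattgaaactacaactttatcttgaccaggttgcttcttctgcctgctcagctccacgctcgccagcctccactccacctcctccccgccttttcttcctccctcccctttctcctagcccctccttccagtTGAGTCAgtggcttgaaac
Gja4 held 1 GC box and Gja5 held 1 GC box and 4 Kruppel-type boxes, of which the last overlapped the GC box by 1 base. Gja1 held neither, and its single match was an AP-1 site at bases -19 to -13 from the start. The promoter of Gjb2, which was not called either, held 2 GC boxes, 7 Kruppel-type boxes and 1 T-box element, so these motifs did not separate the genes that fell from those that were not called. Among 32841 promoter windows of the same length, 32.8% held a GC box, 52.0% a Kruppel-type box, 12.4% a TATA box, 6.75% an AP-1 site and 11.8% a T-box element. A match is only a run of letters, and the data here do not measure binding.

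The exon table places these differences along the transcripts. The 8 genes had 85 exon intervals, some of them overlapping versions of 1 exon, and 75 reached an RPKM of at least 1 in 3 libraries and were tested. Of these, 23 were called higher and 42 lower at 4 months by limma over all exons, where 8.96% of exons were called higher and 14.2% lower. Exons of 1 gene share libraries, and overlapping ones share reads, so they are no replicates.

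All 23 exons called higher belonged to Cdh13, in which the 24 tested exons had log2 fold changes from 0.54 to 1.15. In Cdh2 all 19 tested exons were called lower, from -2.02 to -1.70. In Cdh11 all 13 exons were below 0 and 11 were called. Both exons of Gja4 were called lower, at -2.56 for the 5' exon and -2.12 for the exon that holds the whole coding sequence. Both exons of Gja1 lay close to the gene-level difference, at 0.58 and 0.59, and neither was called. In Gjc1 all 9 exons were below 0 and 6 were called, and no exon of Gjb2 reached the minimum.

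Gja5 was the least even. Its main exon (chr3:97050596-97053634) had a log2 fold change of -2.14 and the exon nearest the RefSeq start was at -2.72. The annotated first exon (chr3:96904693-96905389), far upstream, was at -0.62 and the last at -1.06, and neither of these was called. The first exon overlaps Gpr89 on the opposite strand, and since the sources do not state whether the counting used strand, its reads cannot be assigned to Gja5.

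**Figure D3:**
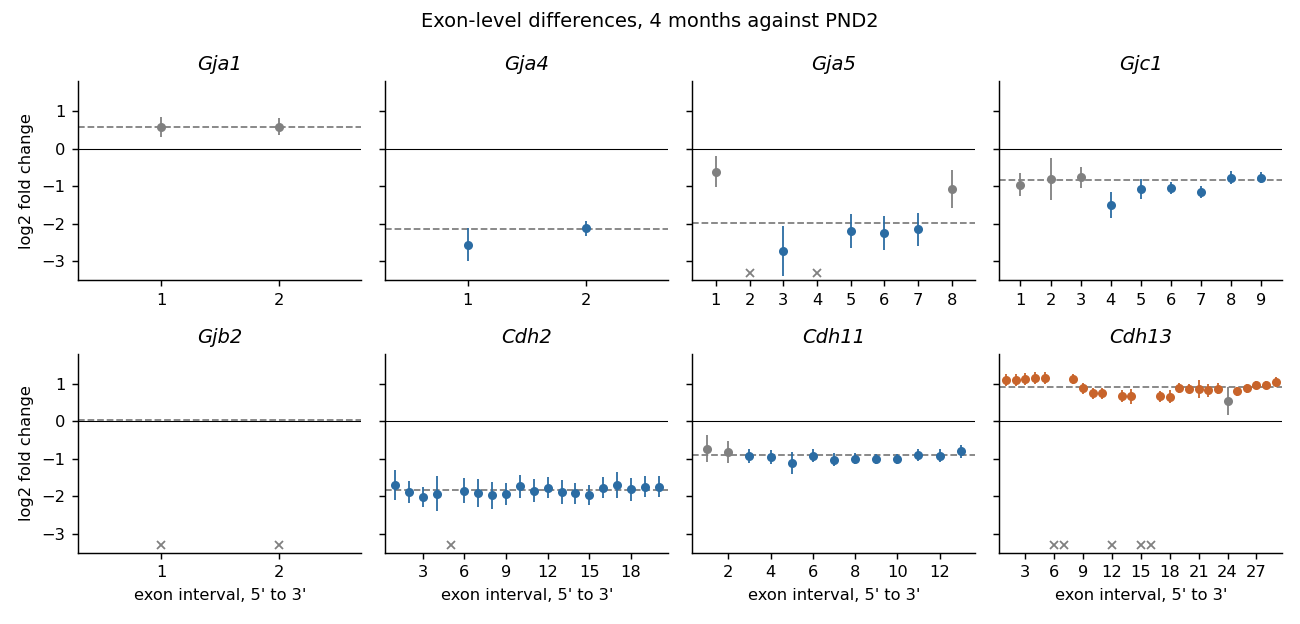
log2 fold change of each exon interval, 4 months against PND2, in order from 5' to 3' for each gene, with the standard error as a bar. Blue points were called lower, orange points higher and grey points not called, a cross marks an interval under the minimum, and the dashed line is the gene-level value. All tested intervals of Cdh2, Cdh11 and Cdh13 lie on the same side of 0 as their gene, and the first and last intervals of Gja5 stand apart from its others.

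The other genes of these junctions were taken from lists of 6 kinds. Of 15 further connexins, 10 could be tested, with a median log2 fold change of 0.05. None reached a mean of 5 RPKM at either age. Gja6, known from testis, was higher, at 0.200 ± 0.183 RPKM at PND2 and 4.22 ± 1.00 at 4 months (log2 fold change 4.05, limma adjusted p = 0.0014). A further pair of called connexins is named after their values were seen. Gja3 (-1.06) and Gjd3 (-1.99) were lower. Panx1, which forms a channel of a related kind, was lower at 12.1 ± 1.78 and 3.13 ± 0.795 RPKM (log2 fold change -1.94, limma adjusted p = 0.00066), and Panx2 and Panx3 had means below 1 RPKM and were not called.

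Transcripts of proteins that work with connexins were also measured. Dbn1, which encodes the actin-binding protein drebrin, fell from 48.0 ± 5.28 to 16.7 ± 1.99 RPKM (log2 fold change -1.52, called lower). Tjp1, the scaffold ZO-1 that binds Cx43, was at 46.3 ± 1.20 and 39.0 ± 4.02 RPKM (-0.25), and Cnst was at 8.38 ± 0.586 and 7.58 ± 0.890 RPKM (-0.15), and neither was called.

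Among 16 further classical cadherins, 11 could be tested, 2 were called higher and 4 lower, with a median of -0.79. Cdh3 (P-cadherin) fell from 43.2 ± 9.51 to 6.93 ± 2.94 RPKM (log2 fold change -2.68, limma adjusted p = 0.00069). Cdh5, the cadherin of endothelial junctions, fell from 97.5 ± 16.7 to 35.2 ± 4.505 RPKM (-1.46), and Cdh18 (-2.10) and Cdh24 (-2.97) fell from 3.32 and 5.03 to 0.692 and 0.568 RPKM. Cdh19, known from the Schwann cell lineage, rose from 0.678 ± 0.314 to 6.20 ± 0.541 RPKM (3.10), and Cdh1 (E-cadherin) rose by 1.17 at under 1 RPKM. Cdh6 was at 7.67 ± 4.29 and 8.26 ± 2.41 RPKM and was not called. Thus Cdh13 and Cdh19 were the only cadherins of these lists that were called higher and had a mean of at least 5 RPKM at either age.

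Catenins anchor cadherins to the cell's interior. Of 12 catenins and linkers tested, 1 was called higher and 5 lower, with a median of -0.38. The most abundant, Ctnnb1 (beta-catenin), was at 301 ± 23.0 and 252 ± 8.64 RPKM (log2 fold change -0.26), Ctnna1 at 274 ± 11.4 and 240 ± 25.5 RPKM (-0.19) and Vcl, which encodes the linker vinculin, at 205 ± 10.05 and 202 ± 15.5 RPKM (-0.02). None of these 3 was called, and Jup was not called either (-0.15). Ctnnd1 (p120-catenin) fell by 0.36 on the log2 scale and Pkp4 rose by 0.82. The remaining called genes were Pkp2 (-1.66), Ctnna2 (-1.46), Arvcf (-0.93) and Mllt4 (-0.49), all lower and all named after their values were seen.

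Of 6 transcription factors of the mesenchymal transition, Snai2, which represses E-cadherin, fell from 29.4 ± 3.52 to 11.5 ± 1.53 RPKM (log2 fold change -1.35, limma adjusted p = 0.00057) and Zeb2 rose from 6.20 ± 0.570 to 9.98 ± 0.940 RPKM (0.68). Snai1 (0.08), Twist1 (0.28), Twist2 (0.20) and Zeb1 (0.16) were not called, with means of 6.76 to 30.7 RPKM.

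**Figure D4:**
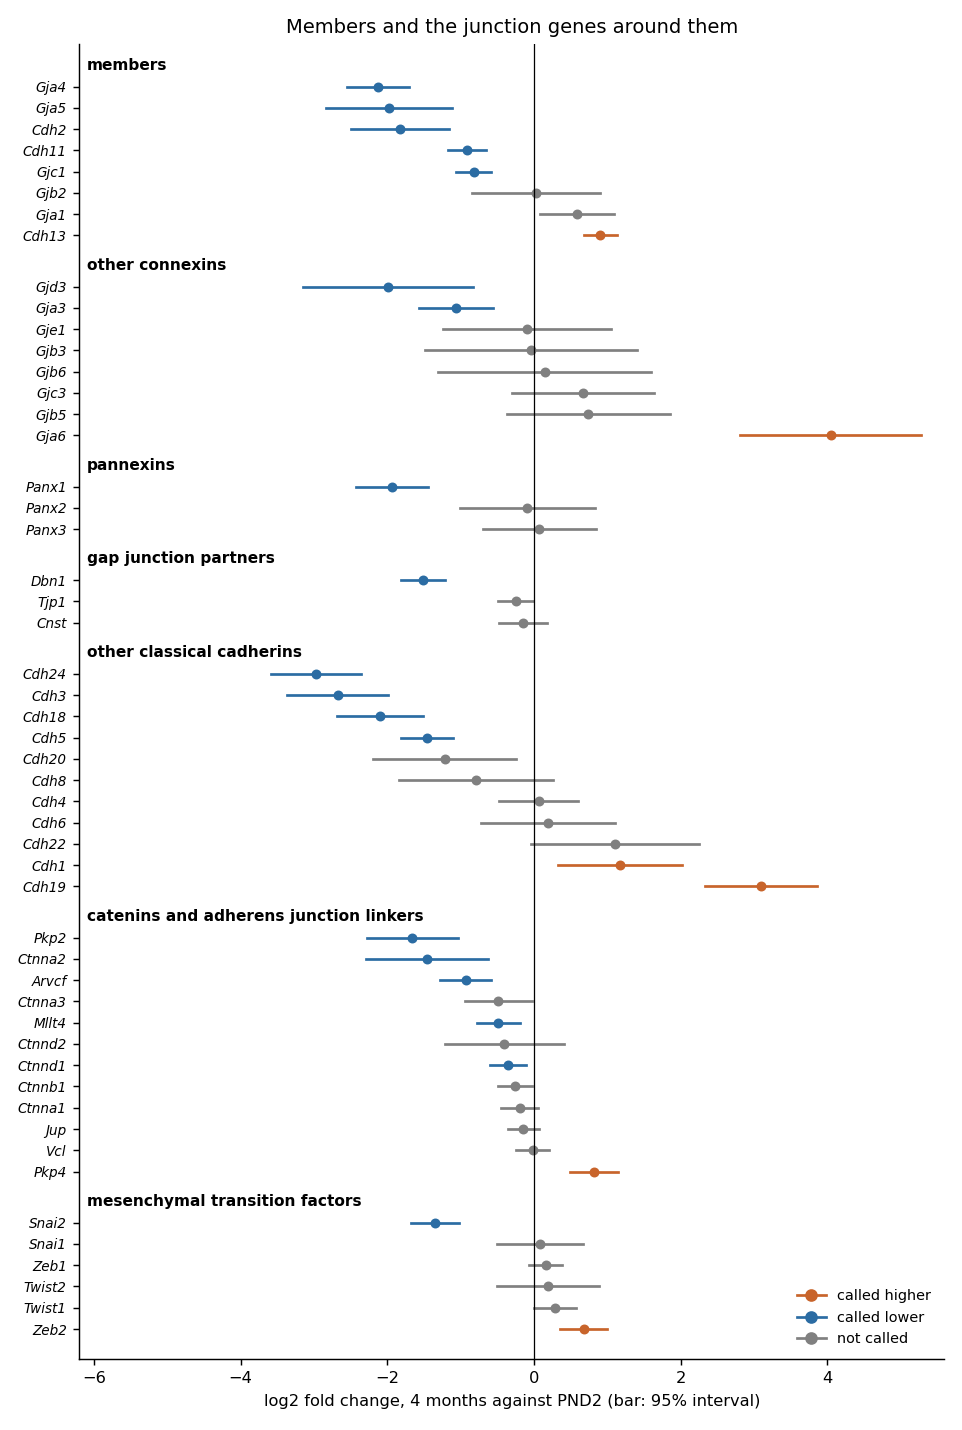
log2 fold change of the 8 genes (top) and of tested genes of the lists, 4 months against PND2, with 95% confidence intervals as bars. Blue is called lower, orange called higher and grey not called. Gja4 leads the falls among the 8 genes at -2.13, and Ctnnb1, Ctnna1 and Vcl lie near 0.

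Markers of the cell types that the libraries could hold moved with age too. In such bulk samples, fewer cells of a type and less RNA per cell cannot be told apart. Of 7 endothelial markers, Cdh5 among them, all 7 were lower at 4 months, and their summed RPKM was 404 to 557 at PND2 and 226 to 247 at 4 months. Of 8 cardiomyocyte markers 3 were lower, and the sum was 7718 to 8206 at PND2 and 4480 to 6375 at 4 months. Of 6 smooth muscle markers 5 were higher, with sums of 7344 to 8490 and 16385 to 27232. Markers of valve interstitial cells were split, with 2 of 7 higher and 3 lower, while Vim and Pdgfra were not called. All 5 macrophage markers, 4 of 5 adipocyte markers and 2 of 5 Schwann cell markers were higher, 2 of 4 melanocyte markers and 1 of 6 tested epithelial and mesothelial markers were lower, and Cidec and Lep were at 0 in the PND2 libraries. Interstitial markers were high, with sums of 5955 to 6395 RPKM at PND2 and 7652 to 9662 at 4 months. The smooth muscle sum was above theirs at each age, and the cardiomyocyte sum was above theirs at PND2. Sums over different genes give no shares of cells. Cardiac muscle transcripts were present in every library, although the study's methods describe valves dissected with little myocardium.

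Gja4 and Gja5, both known from arterial endothelium, fell beside the endothelial markers. The summed endothelial markers were at 47.6, 49.6 and 45.5% of their PND2 mean in the libraries of 4 months. Gja4 was at 22.2, 21.1 and 23.6% of its own PND2 mean, and Gja5 at 25.4, 38.9 and 14.3%. The ratio of Gja4 to the summed markers was 0.174 ± 0.0417 at PND2 and 0.0809 ± 0.00816 at 4 months, without overlap (log2 difference -1.08, exact permutation p = 0.1, 0.129 after adjustment). Against each of the 7 markers alone it ran from -0.55 (Emcn) to -1.64 (Pecam1), below 0 for all 7. The ratio of Gja5 to the markers differed by -0.95, and its ranges overlapped (exact permutation p = 0.2, 0.225 after adjustment). Against single markers it ran from -0.43 to -1.52. The part of endothelial cell number in these falls was not tested. Gja5, known also from atrial muscle, was the highest of its age in the second library of 4 months. That library also had the highest cardiomyocyte sum of its age (6375 RPKM, against 4877 and 4480). The cardiomyocyte marker Myl7, however, was highest in the first library of 4 months (1639 RPKM, against 866 in the second). At PND2, Gja5 was lowest in the first library (9.48 RPKM), which had the highest cardiomyocyte sum of its age (8206 RPKM, against 7718 and 7840). The part of cardiac muscle in the Gja5 values was not tested.

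When the profiles of protein-coding genes over all 6 libraries were compared, the gene with the smallest distance to Cdh2 was Actc1, the cardiac actin, with 6289 ± 670 RPKM at PND2 and 1793 ± 685 at 4 months. The second library of 4 months, in which Cdh2 was the highest of its age, had also the highest cardiomyocyte sum (6375 RPKM, against 4877 and 4480) and the highest Pkp2, a plakophilin of the intercalated disc (16.4 RPKM, against 7.41 and 9.68). The ratio of Cdh2 to the cardiomyocyte sum was 0.00967 ± 0.00106 at PND2 and 0.00426 ± 0.00121 at 4 months, a log2 difference of -1.22 without overlap (exact permutation p = 0.1, 0.129 after adjustment), and -1.41 without that library. The size of this difference depended on the marker. It was -0.18 against Ttn, -0.39 against Actn2 and -0.50 against Tnnt2, the 3 markers that were called lower, and -1.19 to -1.82 against the other 5. At PND2 the order of the libraries differed. Cdh2 was lowest in the first PND2 library (70.3 RPKM), which had the highest cardiomyocyte sum of its age (8206 RPKM, against 7718 and 7840). The part of cardiac muscle in the Cdh2 values was not tested.

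Cdh13 and Gja1 were higher in mean beside markers of smooth muscle that were higher still. The summed smooth muscle markers were at 337, 203 and 243% of their PND2 mean in the libraries of 4 months, against 194, 174 and 194% for Cdh13 and 115, 156 and 177% for Gja1. The log2 ratio to the smooth muscle sum, 4 months minus PND2, was -0.45 for Cdh13 and -0.77 for Gja1, without overlap in either (exact permutation p = 0.1, 0.129 after adjustment). Against Des alone, the marker that was not called, the differences were 1.22 and 0.90, so the direction depended on the marker. These ratios, that of Cdh2 and those to single markers other than Pecam1 were added after the values were seen. Among the 4-month libraries, Gja1 was lowest in the one with the highest smooth muscle sum. The part of smooth muscle in these values, and of cardiac muscle in those of Gja1, was not tested.

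**Figure D5:**
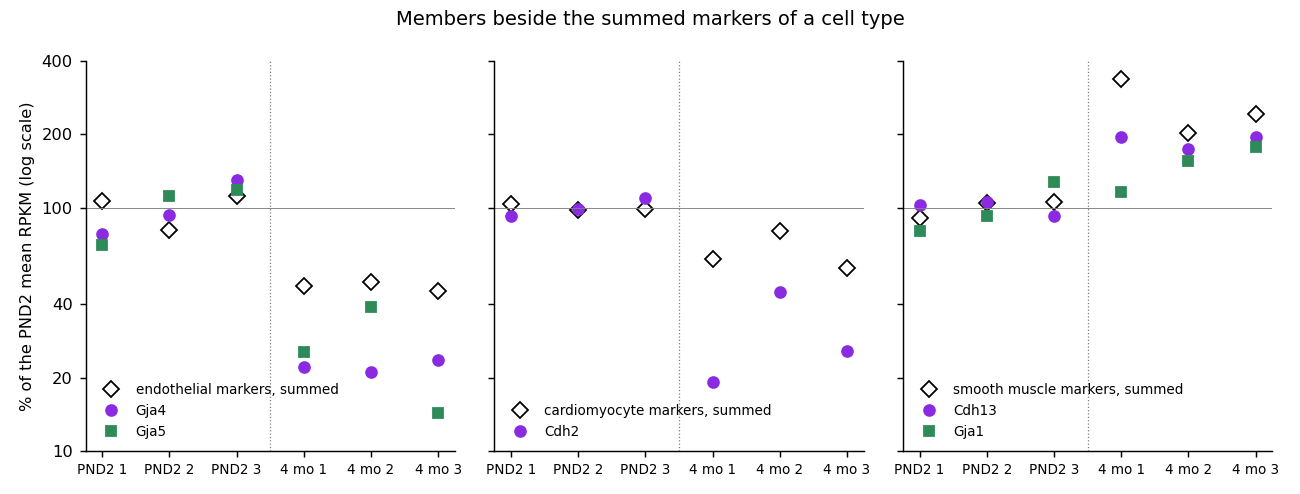
RPKM in each library as a percentage of the PND2 mean, on a log scale, for members and for the summed markers of endothelial cells (left), cardiomyocytes (middle) and smooth muscle cells (right). At 4 months Gja4 lies at 21.1 to 23.6% under an endothelial sum of 45.5 to 49.6%, Cdh2 lies under the cardiomyocyte sum, and Cdh13 and Gja1 lie under the smooth muscle sum.

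The nearest profiles of the other genes were found in the same way, as the smallest Euclidean distance between centred log2(RPKM + 0.1) values over 6 libraries among 16307 protein-coding genes. Distances are in log2 units and describe these libraries only. Gja4 was nearest to Ttyh3 (distance 0.296, 52.2 RPKM at PND2 and 12.8 at 4 months) and Gja5 to Rnf207 (0.473, 35.8 and 9.66 RPKM). Gjc1 was nearest to Slc43a1 (0.0418), Cdh11 to Ccdc58 (0.116), Cdh13 to Acot11 (0.0963) and Cdh2 to Actc1 (0.173). For Gja1 and Gjb2 the nearest genes, Prr36 (0.222) and Grm7 (0.201), were themselves under 0.3 RPKM. A distance over libraries of both ages takes in the difference between the ages as well as the spread within them.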

How the data were processed

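Aortic valves of PND2 and 4-month-old mice were compared with 3 libraries per age, grouped by the source names. The authors prepared stranded libraries, trimmed reads for quality and aligned to mm10 by TopHat2 version 2.1.0, as the methods and the submitters' processing notes say. Ensembl genes and exons were counted with easyRNASeq. What was deposited is RPKM for each gene and exon, so no count test was the main one. Multiplying RPKM by exonic length and library total gave whole reads for 100% of 169855 gene values above 0 (tolerance 0.01). Library totals ran from 23810507 to 38994657, and the RPKM of 1 read on 1 kb from 0.0256 to 0.0420.

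Members were found by gene name. The main test was limma 3.58.1 (R 4.3.3; data.table, version 1.17.8) on log2(RPKM + 0.1), eBayes with trend, 2-sided, over the 25903 genes that reached 0.1 RPKM in 3 libraries, and over 299098 exons with at least 1. Ratios and shares were compared by exact permutation over libraries in Python 3.11.15 with scipy 1.17.1, pandas 2.3.3 and numpy 2.4.6, and plotted with matplotlib 3.10.9. Means are given ± SD. The steps were tested on simulated data.

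The alternatives were other pseudocounts (1 and 0.01), another filter (none, or 1 RPKM), no trend, the per-gene test with unequal variances that the study used, values of up to 10 reads floored, median and quantile scaling, limma voom on recovered reads, a replicate block and each library left out. For exons a minimum of 0.1 was another. Members and lists were chosen with earlier results of these data known. Named genes are the members, list genes with a mean of at least 5 RPKM (at most 6 per list) or called with a fold over 4, and the nearest profile of each member. Others are said to be named after their values were seen. Promoters were matched by symbol. A few list genes are not reported here.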

Additional observations from a re-analysis of the deposited data

How the results depend on the processing

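Of 135 fold changes of the 8 genes under 17 alternatives, 124 kept their direction and their side of the threshold, Gjc1, Cdh11 and Cdh13 under every alternative run for them. The per-gene test with unequal variances that the study used was run with the filter and threshold of the main test. By it, Gja4 (-2.14, adjusted p = 0.055), Gja5 (-2.01, 0.092) and Cdh2 (-1.83, 0.11) were no longer called, leaving 2 members lower. Of all genes, 1351 were then higher and 1780 lower. Gja1 was called under median scaling (0.71), voom (0.59) and the replicate block (0.59, adjusted p = 0.016), which made 2 members higher, and ranged from 0.44 to 0.78 with a library left out, when 1 to 2 members were higher. Gjb2 ranged from -0.14 to 0.19 with a library left out, including -0.08 and -0.03, and its reads are too few for a direction. Left out in turn, libraries gave a log2 ratio of Gja5 to Gja4 from -0.26 to 0.54 and 3403 to 5114 genes lower, the fewest without the third PND2 library. With 1 marker in place of the sum, the log2 ratio of Gja4 to endothelium differed by -1.64 (Pecam1), -0.67 (Cdh5), -0.56 (Tie1), -0.55 (Emcn) and -1.41 (Vwf), and that of Cdh2 to cardiomyocytes by -0.50 (Tnnt2), -0.39 (Actn2), -1.82 (Myl7) and -0.18 (Ttn). The ratios of Cdh13 and Gja1 to smooth muscle differed by -2.56 and -2.88 with Myh11, by -1.26 and -1.59 with Lmod1, and turned to 1.22 and 0.90 with Des. Median scaling moved the median of all genes by 0.12 and gave 4601 genes higher and 4129 lower (52.7% higher, against 41.1%), and no called member changed side. Same-numbered libraries did not deviate together (correlations 0.0439, -0.0608 and -0.160), and no library correlated best with its own number. The labels give same-numbered samples only the number in common. With 3 libraries per age, these correlations cannot show whether they shared a batch. The replicate block gave 3004 genes higher and 4163 lower. The cause of these shifts was not tested. With 3 pools per age, an exact test cannot pass 0.05, and pools hide differences between mice.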
